A study of Mus musculus with 4 samples.

Results

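The genes described here are 32 mouse genes of fatty acid activation, transport and oxidation, with the lipid-sensing receptors that regulate them. They were chosen by name, and every probe set that the platform annotation assigns to 1 of these symbols alone was taken. Of the 32, 30 had such a probe set, 56 probe sets in all, among 45101 on the array and 18193 named genes. Cpt1b was read only by a probe set shared with Chkb and Gm44502, and no probe set was matched to Acsl1, so neither is analysed here. Together 29 members, with 48 probe sets, passed the filter on low signals, and Ehhadh, a peroxisomal oxidation enzyme, did not.

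The RNA came from muscle satellite cells, the stem cells of skeletal muscle, sorted as YFP-positive cells from 10-week-old mice 2 weeks after tamoxifen and not cultured. Control cells carried Pax7Cre/+, Calcr +/+ and Rosa-YFP/YFP. The conditional knockout (cKO) cells carried Pax7Cre/+, Calcr flox/flox and Rosa-YFP/YFP, so the tamoxifen-dependent Cre expressed from Pax7, the YFP reporter and the tamoxifen were common to both groups. Each group held biological replicates numbered 1 and 2, with 1 array each and 4 arrays in all, and this number limits the precision. The labels do not say how many mice a replicate pooled or whether arrays with the same number share a sort or a day.

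In fatty acid oxidation, a fatty acid is joined to coenzyme A by an acyl-CoA synthetase, passed into the mitochondrion on carnitine and shortened in repeated rounds of dehydrogenation, hydration, dehydrogenation and thiolysis. The electrons leave through electron transfer flavoprotein, and the PPAR nuclear receptors, which bind fatty acids, switch many of these genes on. Quiescent satellite cells are known for their use of this fuel, and activated ones for a turn towards glycolysis. The comparisons asked whether these transcripts differed between Calcr cKO and control cells, and between the arrays numbered 1 and those numbered 2.

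Calcr, the targeted calcitonin receptor gene, read 1268 and 1424 on control replicates 1 and 2 and 568 and 684 on cKO replicates 1 and 2, in the direction of the labels. Whether its probes fall inside the floxed region was not looked up, so the remaining signal checks the label only in part. At 2.15-fold lower in cKO without overlap, Calcr was itself not called (limma, adjusted p = 0.99999, and adjusted p = 0.704 with the replicate block), which limits what an absence of calls can show with 4 arrays. All 10 satellite cell markers were kept by the filter, with summed signals of 24047 and 32384 in control and 24245 and 25255 in cKO. Transcripts of other cells were present and differed by replicate number. The 12 endothelial markers summed to 9249 and 8575 on the arrays numbered 1 (control and cKO) against 1010 and 1270 on those numbered 2, and all 12 were higher on number 1 without overlap. The 9 pericyte and smooth muscle markers summed to 16745 and 18942 against 10930 and 8691. Median signals ran from 57.8 (cKO replicate 2) to 70.4 (control replicate 1). Gapdh control probe sets gave 3'/5' ratios between 1.54 and 1.71. In bulk samples such as these, fewer cells of a type and less RNA per cell cannot be told apart.

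Between genotypes, the fatty acid oxidation genes gave no call. Of 29 members, 15 were higher in cKO (41.1% of all probe sets were) and 14 lower (58.9%), with a median log2 difference of 0.02 and a range from -0.45 to 0.34, against a median of -0.06 over all 22519 probe sets tested. Limma called 0 of 29 members at an adjusted p under 0.05, against 0.0% of all probe sets, and the smallest adjusted p = 0.99999, so it is not repeated below. At an unadjusted p under 0.05 it had 0 members, against 0.724% of probe sets. This fit had no replicate block, so differences between replicate numbers entered the spread behind its SEs and p-values. Arrays of the same number correlated at 0.96 (number 1) and 0.95 (number 2), and those of the same genotype at 0.90 (control) and 0.91 (cKO). Both cKO arrays lay above both control arrays for 3 members (Acadl, Etfa and Ppara; 7.87% of all probe sets did so) and below them for 0 (13.5% of all probe sets). Over the members' 48 kept probe sets they lay above for 5 (10.4%) and below for 2 (4.17%). No member was 2-fold apart between genotypes. Fewer arrays overlap less, so these counts rose for members and for all probe sets when 1 array was left out. Without control replicate 1 the cKO arrays lay above control for 5 members (24.0% of all probe sets) and below for 9 (40.2%). Without control replicate 2 it was 15 (29.2%) and 3 (32.3%). Without cKO replicate 1 it was 14 (19.8%) and 5 (42.9%), and without cKO replicate 2 it was 6 (29.1%) and 7 (25.3%). The median then ran from -0.13, without control replicate 1, to 0.15, without control replicate 2.

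By replicate number, the same genes leaned one way. Of 29 members, 24 were lower on the arrays numbered 1, where 45.7% of all probe sets were, and 5 were higher, where 54.3% were. The median log2 difference (number 1 minus number 2) was -0.18 against 0.04 over all probe sets. Arrays did not overlap for 16 members that were lower on number 1, 55.2% of members against 18.5% of all probe sets, and for 3 that were higher, against 26.2%. In 17 members number 1 was lower in both genotypes taken apart, 58.6% against 23.4% of all probe sets. Limma called 0 of 29 members at an adjusted p under 0.05, while it called 2.31% of all probe sets, and the smallest limma value of a member was that of Lpl (adjusted p = 0.0774). At an unadjusted limma p under 0.05 there were 7 members (13.8% of all probe sets), 5 lower on number 1 (4.32%) and 2 higher (9.45%). Leaving out 1 array gave 4 calls without control replicate 2 (Lpl, Pnpla2, Cpt1a and Hadh), where 7.79% of all probe sets were called, and 1 without cKO replicate 2 (Acsl3), where 6.43% were. Control replicate 1 read lowest in 14 of the 29 (48.3%, against 25.5% of all probe sets) and cKO replicate 2 highest in 13 (44.8%, against 15.8%). Leaving out each array in turn kept the median below 0, from -0.30 to -0.18. Median centring shifts all probe sets alike. With arrays centred on their median, the members' median was -0.37 and that of all probe sets -0.15, and the members' distance from all probe sets was -0.22 with and without centring. Quantile normalization, which shifts probe sets unequally, gave -0.23. These shares set members, counted as genes, against probe sets. With the probe sets of each gene averaged, 24 members and 52.0% of all genes were lower on number 1. The medians were then -0.20 and -0.02, and the members' distance was -0.19. Centring also moved the share of all probe sets lower on number 1 from 45.7% to 64.3%, with 25 members lower. Between genotypes it moved the share higher in cKO from 41.1% to 56.0%, with 21 members higher, and Lpl, Pnpla2, Acsl5, Echs1, Acaa2 and Hsd17b4, all within 0.08 of 0, changed sign.

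**Figure D1:**
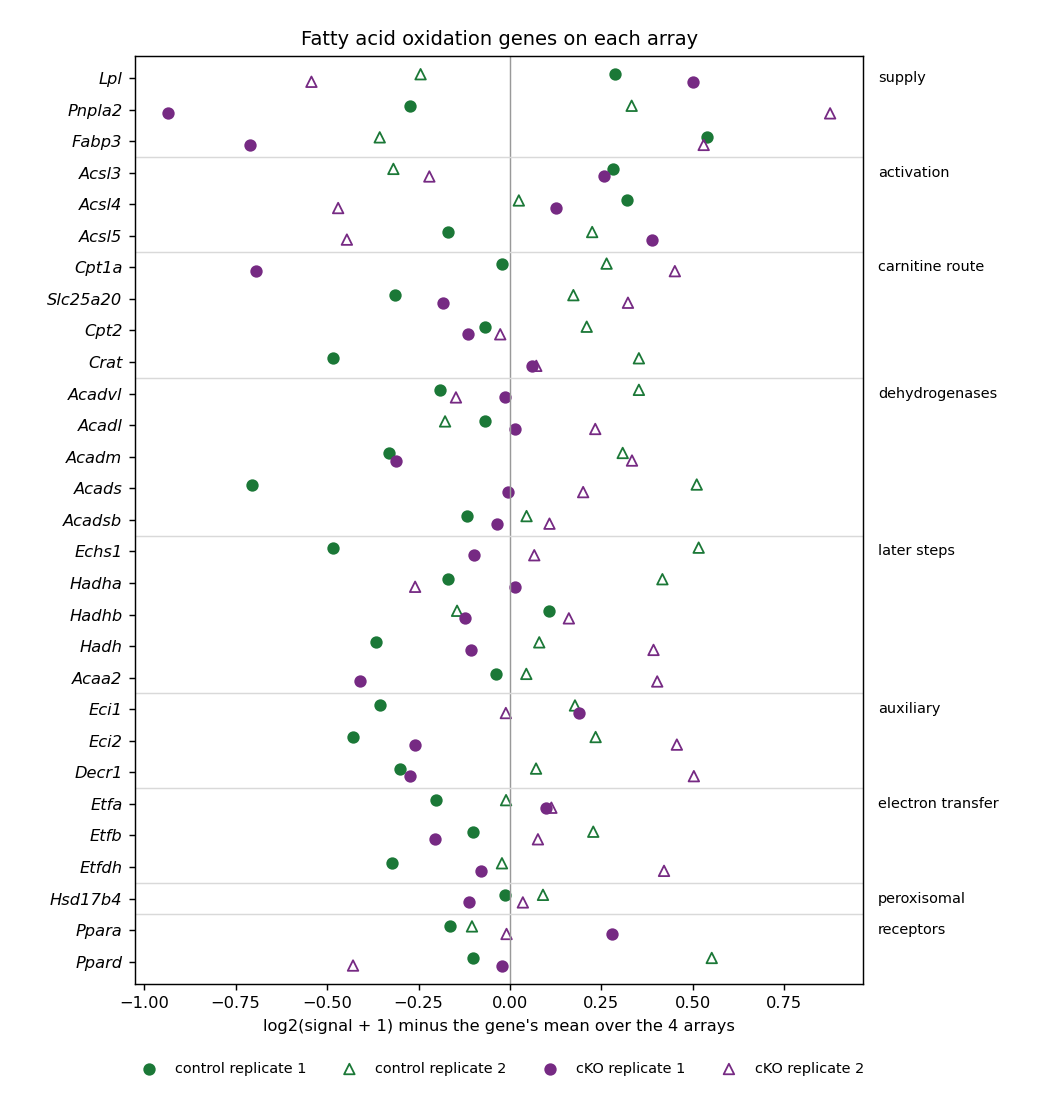
Signals of the 29 members kept, each as log2(signal + 1) minus the gene's mean over the 4 arrays, with filled circles for replicate number 1, open triangles for number 2, green for control and purple for cKO. Most enzymes have circles to the left of triangles in both colours, while Lpl, Acsl3 and Acsl4 have them to the right.

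Genes that supply fatty acids to the cell did not move together. Lpl encodes lipoprotein lipase, the secreted enzyme that frees fatty acids from lipoproteins. It read 1866 and 1291 on control replicates 1 and 2, and 2164 and 1049.6 on cKO replicates 1 and 2. Both arrays numbered 1 lay above both numbered 2, by 1.73-fold (log2 difference 0.79, SE 0.19; limma, adjusted p = 0.0774), and genotypes overlapped. Its other kept probe set differed by 0.88 in the same direction. Pnpla2 encodes adipose triglyceride lipase, which opens the breakdown of stored fat. On its brightest probe set it read 429.5 and 655 in control and 271 and 954 in cKO, lower on number 1 in both genotypes and 2.31-fold overall (log2 difference -1.21, SE 0.31; limma, adjusted p = 0.0896). Its other kept probe set read 82.9 and 74.5 in control and 73.8 and 85.9 in cKO, a log2 difference of only -0.03, so the size of the Pnpla2 difference depends on the probe set.

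Fabp3, the fatty acid binding protein of heart and skeletal muscle, followed neither split. It read 286 and 153 in control and 119 and 284 in cKO. Control replicate 1 and cKO replicate 2 were high and the other two low, so the genotype difference was -1.25 (log2) between arrays numbered 1 and 0.89 between those numbered 2. The 10 muscle fibre markers summed to 4295 and 2387 in control and 2418 and 3237 in cKO, with 10 of 10 higher on control replicate 1 than on control replicate 2 and 8 of 10 higher on cKO replicate 2 than on cKO replicate 1. Among them Ckm, the muscle creatine kinase, read 146, 55.8, 37.0 and 82.3 in the same array order. What part fibre RNA has in the Fabp3 signal was not tested.

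The acyl-CoA synthetases, which activate fatty acids, had positive differences by number in all 3 members measured, under each scaling tried, as Lpl did; none was called. Acsl3, an isoform of the endoplasmic reticulum and lipid droplets, read 2614 and 1723 in control and 2569 and 1845 in cKO. The arrays numbered 1 were thus close to each other and 1.45-fold above those numbered 2 (log2 difference 0.54, SE 0.15; limma, adjusted p = 0.131), and its 2 other kept probe sets had the same sign. Acsl4, which prefers arachidonic acid, read 914 and 744 in control and 798 and 528 in cKO. By number the arrays did not overlap (log2 difference 0.45), and the genotype difference was -0.34 (SE 0.31) with overlapping arrays. Its other kept probe sets differed by 0.05 and 0.26 by number, with overlapping arrays and a negative difference in control (-0.06 and -0.24). By genotype they were at -0.15, with both cKO arrays below both controls, and at -0.34, with overlapping arrays. Acsl5 read 306 and 402 in control and 451 and 252 in cKO, so its difference by number turned between genotypes.

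On the carnitine route into the mitochondrion, all 4 measured genes were lower on number 1 without overlap on their brightest probe sets, as 18.5% of all probe sets were. Cpt1a, the outer membrane carnitine palmitoyltransferase and the gate of the pathway, read 1376 and 1677 in control and 862 and 1909 in cKO. The cKO arrays were the lowest and the highest of the 4, and control lay between them. The difference by number was -0.71 (log2, SE 0.24; limma, adjusted p = 0.203), with -0.28 in control and -1.15 in cKO. A kept probe set of the same kind gave -0.77. The other, the only one without a suffix in its name, gave -0.34 with overlapping arrays, and in control its sign turned (973 and 792, a difference of 0.30). Slc25a20, the carnitine-acylcarnitine carrier of the inner membrane, read 264 and 371 in control and 289 and 411 in cKO, a nearly equal difference in both genotypes (-0.49 and -0.51). Its other kept probe set differed by -0.12, with overlapping arrays. Cpt2, which returns the acyl group to coenzyme A inside, read 71.1, 86.5, 68.9 and 73.3, close to the filter signal of 63.9. Crat, the carnitine acetyltransferase, was similarly dim, at 69.0 and 124 in control and 101 and 102 in cKO. On their brightest probe sets none of the 4 separated the genotypes, whose log2 differences ran from -0.24 to 0.14. The other kept probe set of Slc25a20 did, at 154 and 161 in control and 170 and 190 in cKO (log2 difference 0.19).

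The 16 mitochondrial enzymes that follow, from dehydrogenases to electron transfer, were all lower on number 1 on average, with a median of -0.35. For 10 of them the arrays did not overlap, 62.5% against 18.5% of all probe sets, and limma called 0; at an unadjusted p under 0.05 it had 3 (Acadm, Hadh and Eci2). Averaged over the genotypes, satellite cell markers went the same way, with 10 of 10 lower on number 1 (median -0.18), 3 without overlap. Within control 0 of these 10 were higher on number 1 (median -0.47), but within cKO 6 of 10 were (median 0.02). Number 1 was lower in both genotypes for 4 of the 10 markers and for 11 of the 16 enzymes. Endothelial markers went the other way. The part of satellite cell and endothelial RNA in the result was not tested. Between genotypes, 11 of the 16 were higher in cKO and 5 lower (median 0.13), and the sign turned between the replicate numbers for 7 of the 16.

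Among the acyl-CoA dehydrogenases, which take the opening step of each round for chains of different length, Acadm had the tightest arrays. This medium-chain enzyme gene read 532 and 539.6 on control and cKO replicate 1, and 829.5 and 844 on replicates 2. The difference by number (-0.64, SE 0.23; limma, adjusted p = 0.230) was 1.56-fold in arrays whose genotypes differed by 0.02. Acads, for short chains, read 54.4 and 128 in control and 88.9 and 103 in cKO, and Acadsb, for short branched chains, 463 and 519 in control and 491 and 542 in cKO. Both had number 1 below number 2. Acadl, the long-chain enzyme gene, was the dehydrogenase that separated genotypes, at 547 and 507 in control and 578 and 674 in cKO (log2 difference 0.25, SE 0.28). Acadvl, for very long chains, overlapped in both splits, with its highest signal on control replicate 2 (1452) and 996 to 1125 on the other arrays.

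The later steps of the round are carried out by the trifunctional protein, encoded by Hadha and Hadhb, and by Echs1, Hadh and Acaa2. Hadh, the short-chain hydroxyacyl-CoA dehydrogenase, read 1405 and 1915 in control and 1684 and 2379 in cKO. Number 1 lay below number 2 (log2 difference -0.47, SE 0.19; limma, adjusted p = 0.292), as on both its other kept probe sets. Its genotype difference was 0.29 (SE 0.26), and the arrays overlapped. Echs1, the short-chain enoyl-CoA hydratase, read 166 and 333 in control and 217 and 244 in cKO. Acaa2, the thiolase that closes the round, read 496 and 525 in control and 382 and 673 in cKO. Both were lower on number 1, Echs1 more in control and Acaa2 more in cKO. The other kept probe sets of Acaa2 differed by -0.72 and -0.30 by number, the latter with overlapping arrays. In control alone they differed by only -0.02 and by 0.17, so there the direction for Acaa2 depends on the probe set. The arrays of the trifunctional subunits overlapped by number. Hadha read 487 and 733 in control and 553 and 458 in cKO, with a mean difference of -0.16 that was -0.59 in control and 0.27 in cKO. Hadhb stayed between 1307 and 1615 with a difference by number of -0.02, while its other kept probe sets were at 0.03 and 0.29. The probe set at 0.03 read 855 and 807 in control and 888 and 907 in cKO. Both its cKO arrays were thus above both controls (log2 difference 0.11).

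Auxiliary enzymes handle unsaturated chains. Eci2, an enoyl-CoA isomerase of mitochondria and peroxisomes, read 391 and 620.2 in control and 439.9 and 724 in cKO, a 1.61-fold difference by number (log2 difference -0.69, SE 0.25; limma, adjusted p = 0.237). Decr1, the dienoyl-CoA reductase, read 408 and 528 in control and 416 and 713 in cKO. In both genes number 1 was lower in each genotype, and cKO replicate 2 was highest. Eci1, the mitochondrial isomerase, overlapped by number (306 and 444 in control, 448 and 389 in cKO). All 3 had a positive genotype difference, from 0.18 to 0.23, with overlapping arrays, and the other kept probe set of Decr1 was at -0.08.

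Electron transfer genes included the member with the smallest genotype p. This was Etfa, the alpha subunit of electron transfer flavoprotein, which read 2149 and 2454 in control and 2648 and 2674 in cKO. Both cKO arrays were above both controls and close to each other, but the difference was only 1.16-fold (log2 difference 0.21, SE 0.17). Etfdh, the oxidoreductase that passes the electrons to ubiquinone, read 473 and 582 in control and 560.0 and 792 in cKO. It was higher in cKO within each number (0.24 and 0.44 on the log2 scale), yet cKO replicate 1 lay below control replicate 2 (log2 difference 0.34, SE 0.31). Etfb, the beta subunit, went the other way, at 759 and 952 in control and 706 and 858 in cKO, so the flavoprotein's subunits did not move together. By number, Etfb and Etfdh were lower on number 1 without overlap, and Etfa overlapped.

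Of the peroxisomal enzymes, 1 was kept. Hsd17b4, the bifunctional enzyme of peroxisomes, read 545 and 585 in control and 509 and 564 in cKO, with log2 differences of -0.13 by number and -0.08 by genotype. Its other kept probe set differed by -0.54 by number, 1.45-fold and likewise without overlap, and by 0.27 by genotype, so neither size is settled by the probe sets. Ehhadh read 18.1 to 28.6 on all arrays, under the filter.

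The receptors had opposite genotype differences. Ppard, the PPAR isoform best known from muscle, read 302 and 475 in control and 319 and 240.1 in cKO. The arrays numbered 1 were close to each other, and the log2 difference of -0.45 (SE 0.37) came from the arrays numbered 2, where it was -0.98, against 0.08 at number 1. Its other kept probe set was at -0.50 with both cKO arrays below both controls. Ppara, the isoform best known from liver, was dim, at 67.8 and 70.8 in control and 92.6 and 75.7 in cKO (log2 difference 0.27, SE 0.40). Its other kept probe set was at -0.04, so the probe sets did not share a direction. By number its difference of 0.11 became -0.07 with centred arrays.

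**Figure D2:**
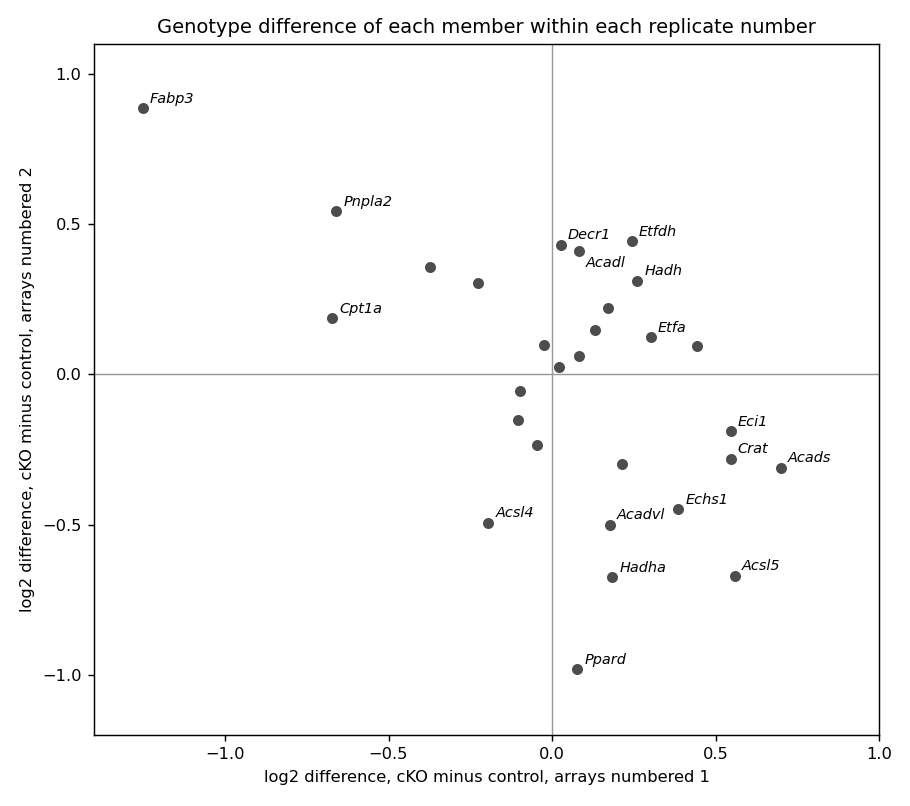
Genotype difference of each member, as log2 cKO minus control, between the arrays numbered 1 (horizontal) and between those numbered 2 (vertical). Of 29 members, 10 lie above 0 on both axes, 4 below 0 on both, and 15 change sign, with Fabp3 (-1.25 and 0.89) farthest from agreement between the axes and Ppard (0.08 and -0.98) lowest on the vertical one.

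Over all members the genotype difference held its sign between numbers in 14 of 29. It was positive at both numbers in 10 members, 34.5% against 16.1% of all probe sets, and negative at both in 4, 13.8% against 25.7%. It turned in 15, 51.7% against 58.2% of all probe sets. The members positive at both were Acadl, Acadm, Acadsb, Decr1, Eci2, Etfa, Etfdh, Hadh, Ppara and Slc25a20. The difference by number was larger than that by genotype in 21 members, 72.4% against 63.0% of all probe sets.

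RefSeq promoter windows, 300 bases from 250 before to 50 after the transcript start, were matched for 26 members (27 windows, GRCm38.p6) and searched on both strands. The hexamer AGGTCA, which nuclear receptors such as the PPARs bind as a repeat, was found in 4 windows (14.8%, against 16.3% of all 32851 windows searched). The direct repeat to which PPARs bind (the DR1 element) and the ERR motif TNAAGGTCA, which contains AGGTCA, were in 0 member windows, against 0.381% and 1.28% of all windows. The palindromic NRF1 motif (the capitals of Etfdh below), known from mitochondrial genes, was in 2 (7.41%, against 0.971%), those of Etfdh and Ppara, and the cAMP response element TGACGTCA in 0 (against 1.79%). A match describes letters and is not a shown binding site. The 4 windows below hold a match, in capitals, and belong to members whose arrays did not overlap by number. They are written 5' to 3' along the gene: Cpt1a at chr19:3323051-3323350, plus strand, with the hexamer on the opposite strand; Acadm at chr3:153944594-153944893, minus strand, likewise; Echs1 at chr7:140116372-140116671, minus strand, with the hexamer on the gene's strand; and Etfdh at chr3:79628718-79629017, minus strand, with the NRF1 motif, which reads the same on both strands. The matches begin 94, 249, 83 and 128 bases before the start.
Cpt1a: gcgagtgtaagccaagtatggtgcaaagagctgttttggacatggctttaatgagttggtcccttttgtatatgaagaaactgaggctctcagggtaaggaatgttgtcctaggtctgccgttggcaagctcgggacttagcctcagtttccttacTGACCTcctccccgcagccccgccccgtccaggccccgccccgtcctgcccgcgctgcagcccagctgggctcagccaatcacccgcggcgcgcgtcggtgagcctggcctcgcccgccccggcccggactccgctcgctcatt
Acadm: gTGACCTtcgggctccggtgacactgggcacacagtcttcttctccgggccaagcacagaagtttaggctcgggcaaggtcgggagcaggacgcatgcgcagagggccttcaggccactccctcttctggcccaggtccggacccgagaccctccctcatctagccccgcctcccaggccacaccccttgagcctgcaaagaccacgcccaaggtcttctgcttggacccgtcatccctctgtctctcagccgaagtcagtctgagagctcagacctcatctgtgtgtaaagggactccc
Echs1: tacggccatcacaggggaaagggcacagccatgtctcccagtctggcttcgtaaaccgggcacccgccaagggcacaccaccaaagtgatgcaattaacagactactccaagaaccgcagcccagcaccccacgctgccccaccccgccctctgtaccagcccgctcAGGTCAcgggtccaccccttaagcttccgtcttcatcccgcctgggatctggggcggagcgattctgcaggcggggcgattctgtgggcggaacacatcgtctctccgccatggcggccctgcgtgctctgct
Etfdh: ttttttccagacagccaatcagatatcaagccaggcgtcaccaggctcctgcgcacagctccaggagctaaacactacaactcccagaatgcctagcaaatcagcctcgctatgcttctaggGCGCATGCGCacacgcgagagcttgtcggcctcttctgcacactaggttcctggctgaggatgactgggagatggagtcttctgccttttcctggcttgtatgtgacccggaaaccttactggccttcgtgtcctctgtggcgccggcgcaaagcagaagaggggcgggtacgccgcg

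Other genes of lipid use gave calls by number but none by genotype. Of 89 listed genes that are not members, 81 had a probe set and 67 were kept. Limma called 0 between genotypes and 5 by number, all higher on number 1 (2.12% of all probe sets were called so): Cd36, Fabp4, Fabp5, Gpihbp1 and Mgll. Cd36, a fatty acid translocase, read 4192 and 202 in control and 3762 and 453 in cKO (13.1-fold; limma, adjusted p = 0.000181). Gpihbp1, which anchors lipoprotein lipase on capillary endothelium, read 987 and 46.2 in control and 857 and 62.0 in cKO (16.9-fold; limma, adjusted p = 6.96e-05). Fabp4, a fatty acid binding protein of adipocytes and capillary endothelium, read 6421 and 1209 in control and 5482 and 1574 in cKO (4.30-fold; limma, adjusted p = 9.81e-05). Mgll, monoacylglycerol lipase, was 5.40-fold apart (limma, adjusted p = 0.00686, and adjusted p = 0.0649 without control replicate 1). Fabp5 was 2.17-fold apart (limma, adjusted p = 0.0187), a call lost without control replicate 1 (adjusted p = 0.0628), without cKO replicate 1 (adjusted p = 0.260) and after median centring (adjusted p = 0.0715). Of the 6 adipocyte markers measured, Adipoq, Cidec, Retn and Lep read under the filter signal on every array, at 1.87 to 48.1. The other 2 were higher on number 1 without overlap: Fabp4, given above, and Lipe, at 96.3 and 54.2 in control and 114 and 57.6 in cKO. Endothelial markers were high on the same arrays as these 5 genes. The part of endothelial or adipocyte RNA in them, and in Lpl, was not tested.

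**Figure D3:**
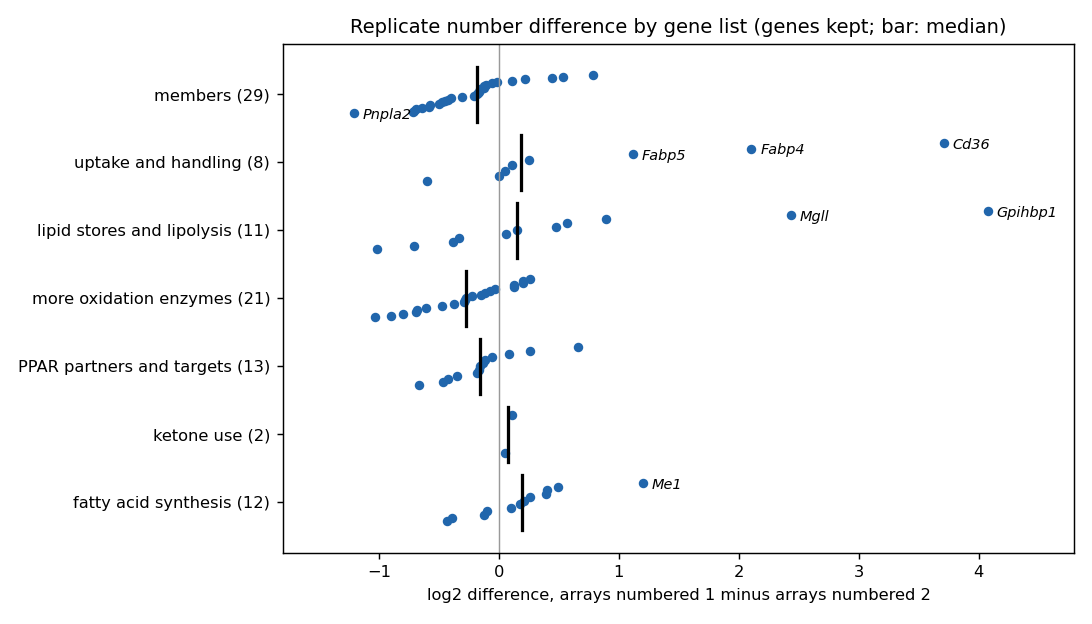
Difference between replicate numbers, as log2 number 1 minus number 2, for each kept gene of the members and of the 6 other lipid lists, with a black bar at the median and the number of genes in brackets. The members (median -0.18) and the list named more oxidation enzymes (-0.28) lie mostly below 0, and Gpihbp1 and Cd36 farthest above it.

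A list of more oxidation enzymes, outside the member list, leaned as the members did. It also holds related genes that are not fatty acid oxidation enzymes, such as Pex5, Abcd3, Ivd and Mcee. Of 21 kept, 16 (76.2%, against 45.7% of all probe sets) were lower on number 1, with a median of -0.28. Arrays did not overlap for 11 of them (52.4%, against 18.5%), and limma called 0 (against 2.31%), with 5 at an unadjusted p under 0.05. Acot1, an acyl-CoA thioesterase gene, read 149 and 300.1 in control and 116 and 243 in cKO, and Ivd, isovaleryl-CoA dehydrogenase, 206 and 431 in control and 195 and 283 in cKO, with a difference by number of -0.80 against -0.14 on its other kept probe set. Mcee, of the propionate route, read 181 and 333 in control and 239 and 335 in cKO. Leaving out each array in turn, the difference by number ran from -1.22 to -0.85 for Acot1 and from -1.10 to -0.49 for Ivd. Among PPAR partners and targets, 10 of 13 were lower on number 1 (median -0.16), 4 of them without overlap (30.8%, against 18.5% of all probe sets), with Pdk4, the kinase that closes pyruvate entry, at 3068 and 3810 in control and 2649 and 3859 in cKO (limma, adjusted p = 0.178, and adjusted p = 0.0492 after median centring).

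The PPAR coactivator genes were higher on both cKO arrays. Ppargc1a, which drives mitochondrial gene programmes, read 78.1 and 67.4 in control and 116 and 119 in cKO, a 1.61-fold difference (log2 0.69, SE 0.38). Ppargc1b read 94.8 and 110.0 in control and 144 and 145 in cKO (log2 difference 0.50, SE 0.36). Nrip1, a corepressor that opposes them, was lower on both cKO arrays, at 641 and 871 in control and 573 and 527 in cKO (log2 difference -0.44, SE 0.29). Its other 5 kept probe sets did not bear this out, with differences from -0.09 to 0.25, and their mean with it was -0.01. None of the 3 genes was called, and Ppargc1a in control lay close to the filter signal of 63.9. In the same list 3 of 13 genes (23.1%, against 7.87% of all probe sets) had cKO arrays above control and 2 (15.4%, against 13.5%) below.

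Genes of fatty acid synthesis turned with the replicate number. At number 1, 11 of 12 were higher in cKO (median 0.52), where 12437 of 22519 probe sets were, and at number 2 only 1 of 12 was (median -0.50), where 7914 were. Scd2, a stearoyl-CoA desaturase, read 745 and 1239 in control and 1649 and 1139 in cKO, and Scd1 1541 and 2791 in control and 2235 and 2125 in cKO. Fasn, fatty acid synthase itself, chosen after its values were seen, read 479.7 and 730.2 in control and 698 and 321 in cKO. Pooled over numbers the list's genotype median was -0.03, and limma called 0 of 12 in either comparison.

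**Figure D4:**
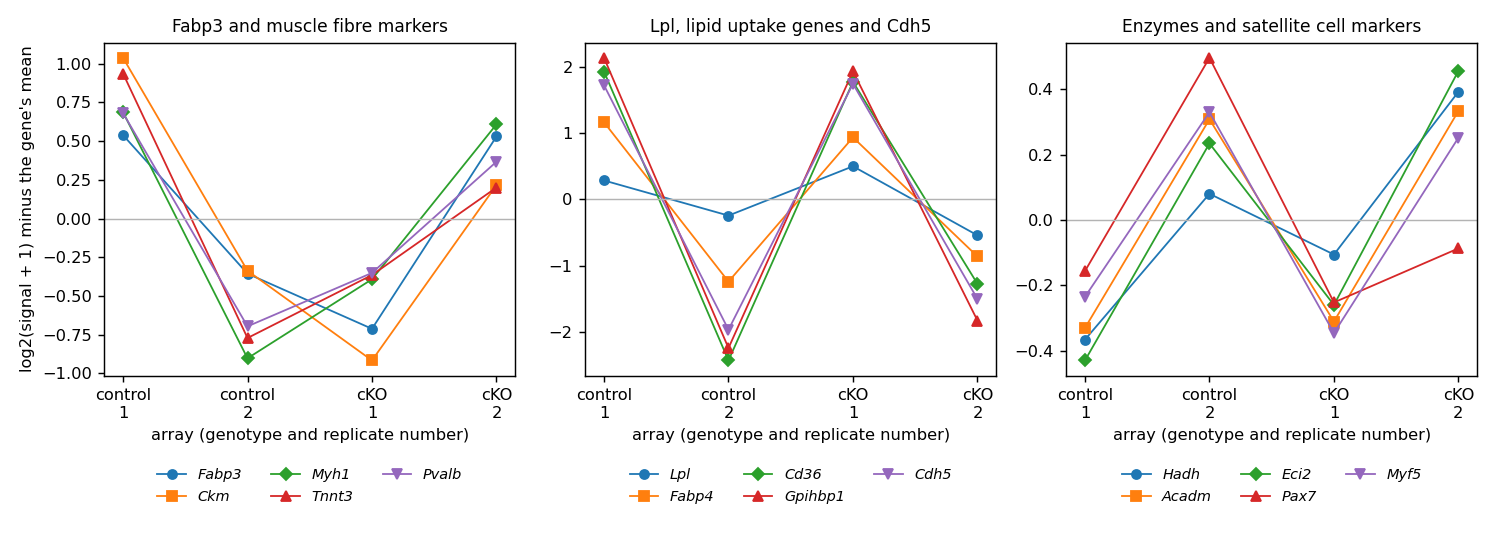
Log2(signal + 1) minus each gene's mean over the 4 arrays, for genes chosen after their values were seen: Fabp3 with muscle fibre markers, Lpl with lipid uptake genes and the endothelial Cdh5, and 3 oxidation enzymes with Pax7 and Myf5. Pax7 and Myf5 are among the 3 of 10 satellite cell markers that were lower on number 1 without overlap. Within cKO, 6 of those 10 markers were higher on number 1. Fabp3 and the fibre markers shown are high on control replicate 1 and cKO replicate 2. Of the 10 fibre markers listed, 2 (Actn3 and Myh2, not shown) were instead higher on cKO replicate 1 than on cKO replicate 2. Lpl is high on both arrays numbered 1, and the enzymes shown are low on them.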

How the data were processed

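Total RNA of sorted satellite cells was labelled with biotin and hybridised to 1 array per sample, per the labels' protocols. The authors deposited linear MAS5 signal intensities, per the submitters' processing notes; no scaling target is stated in them. Of 45101 probe sets, 34945 had 1 gene symbol in the platform annotation, 932 several and 9160 none, with 64 AFFX controls left out, and 0 symbols changed against the RefSeq gene table. Values were analysed as log2(signal + 1) without further normalization. The added 1 understates changes of low signals, and less so the brighter the signal. The filter kept the 22519 probe sets at or above the median of the mean log2 values (a signal of 63.9). A gene was read on its brightest probe set.

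Genotypes, and replicate numbers, were each compared over all kept probe sets with limma 3.58.1 in R 4.3.3 (lmFit, eBayes with an intensity trend, no block; 2 residual and 5.32 prior degrees of freedom), 2-sided, with Benjamini-Hochberg adjustment at 0.05. An exact permutation test of 2 against 2 arrays cannot go below 0.333. P-values measure the spread between these samples. Members and lists were chosen with earlier results of these data known. By rule, array values were given for 8 fixed members (Cpt1a, Cpt1b, Cpt2, Slc25a20, Ppara, Ppard, Lpl, Fabp3), for called members and for the 6 with the smallest p per comparison, and up to 3 genes per pathway list; other members are given for completeness. The steps were tested on simulated data. For limma these were arrays with known genotype changes, equal independent noise and no difference by replicate number. That setting cannot show what the fit would call in these data, where the replicate numbers differ. Alternatives were quantile normalization or median centring, a larger pseudocount (32), a filter at the 75th percentile or none, no trend, a replicate block, other probe set rules and leaving out each array.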

Additional observations from a re-analysis of the deposited data

How the results depend on the processing

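Limma called 0 members between genotypes under all 13 alternatives, and 0 by number under the 9 that kept all arrays; leaving out 1 array gave 0 to 4 by number. Over all probe sets, the replicate block raised genotype calls from 0 to 5, and leaving out 1 array gave 0 to 5; calls by number (521) became 141 with the filter at the 75th percentile and 252 to 1755 with an array left out. The members' median by number moved from -0.18 to -0.37 with arrays centred on their median, and ran from -0.30 to -0.18 with an array left out. Leaving out arrays moved the members with cKO arrays above control from 3 to between 5 and 15, below control from 0 to between 3 and 9, and those higher on number 1 from 3 to between 4 and 6; fewer arrays overlap less. With a gene's probe sets averaged, 2 members had cKO arrays below control. Members lower on number 1 without overlap (16) ranged from 12 to 18 over the 9 alternatives with all arrays and from 17 to 20 with one left out. With all arrays kept, 6 of 29 members changed sign by genotype under at least 1 alternative (none over 0.0773 in size on the log2 scale to begin with) and 2 by number, Hadhb and Ppara (up to 0.113). Counting fits without 1 array, 21 changed sign by genotype, from differences of up to 0.247, and 10 by number, of up to 0.221. Of 13 single values that passed only under an alternative and 6 that lost their call, the cause was not tested.

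The replicate number was not used as a pairing, since the labels do not say that it marks one. Deviations of same-numbered arrays correlated at 0.43 over the kept probe sets. Under the replicate block 0 members were called. Depth in the sense of signal limits Cpt2, Crat, Ppara and Acads most, which read near the filter signal of 63.9.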

Other observations

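Pnpla2, Cpt1a and Acaa2 were the 3 members whose signal was lowest on cKO replicate 1 and highest on cKO replicate 2, an order found in 5.85% of all probe sets tested and in 10.3% of members. Of the 67 kept genes of the other lipid lists, 6 had the same order, 8.96% against 5.85% of all probe sets. These were Slc27a1, a fatty acid transporter, Plin2, a lipid droplet coat gene, Angptl4, an inhibitor of lipoprotein lipase, Pdk4, Nudt7 and Acad11. They were chosen after their values were seen. Angptl4 read 599.8 and 548 in control and 335 and 975 in cKO, and Plin2 311 and 286 in control and 186 and 319 in cKO. Slc27a1 read 678 and 726 in control and 451 and 971 in cKO. Of the 13 kept genes in the list of PPAR partners and targets, 1 (Pdk4) had this order, 7.69% against 5.85% of all probe sets. This order places both control arrays between the cKO arrays by construction.

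The fibro-adipogenic markers, which include 2 of 7 with that order, summed to 12467 and 15083 in control and 13009.5 and 14388 in cKO. The leukocyte markers summed to 887 and 1900 in control and 1071 and 309.9 in cKO.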
